A study of Mus musculus with 6 samples.

Results

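The genes of the mitochondrial respiratory chain and ATP synthase were followed in RAW 264.7 cells, a mouse leukemic macrophage line, that were given mica fine particles (MFP), milled particles of an aluminosilicate mineral. Genes were taken when their symbol starts with Nduf, Sdha, Sdhb, Sdhc, Sdhd, Uqcr, Cox4 to Cox8 or Atp5, without Cox6a2, and when a probe was detected at p under 0.05 on every array. The annotation held 90 such genes and 80 of them passed, among 9984 features tested in all. Cells were cultured in medium with more FBS and then seeded in medium with 2% FBS some hours before MFP was added. They were collected at 0 h, 12 h and 48 h of 100 μg/mL MFP, with no other agent and no genetic change between groups. RNA from each time point was read on 2 Illumina beadchip arrays (Mouse WG-6 v2.0), 6 in total. The 0 h cells were taken as the untreated control. Each time point has its own particle exposure and its own length of culture, so the effects of particles and of time in culture cannot be told apart. Neither the labels nor the methods tell if separate flasks fed the 2 arrays of each time point, and the p-values therefore cover array-to-array spread that could be purely technical.

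The respiratory chain passes electrons from NADH (complex I) and succinate (complex II) through ubiquinone, complex III and cytochrome c to oxygen at complex IV, and pumps protons across the inner mitochondrial membrane as it does so. ATP synthase, complex V, lets the protons back and makes ATP. Nearly all subunits are encoded in the nucleus, a few in mitochondrial DNA, and activated macrophages are known for shifting between respiration and glycolysis.

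Between 16176 and 17155 probes were detected per array. Of 9 annotated macrophage markers, 8 were measured, and at 48 h Adgre1, Itgam, Lyz2 and Fcgr1 rose while Csf1r and Cd14 fell (median log2 fold change of the 8, 0.55). The part of this shift in the results below was not tested, and in bulk RNA fewer cells of a kind cannot be told apart from less RNA per cell. All 5 T cell markers and the 2 annotated B cell markers were detected on no array. Of 4 fibroblast and 4 epithelium markers, 2 of each list were detected on no array. The 1 epithelium marker that was measured passed in no comparison. The deposited normalized values fall into 2 sets of 3 arrays, each with 1 array per time point, that had been normalized apart (set 1 holds 0 h replicate 1, 12 h replicate 2 and 48 h replicate 2). A level below is the log2 of the normalized signal, and a gene is said to have risen or fallen where limma gave an adjusted p under 0.05 over all features.

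At 48 h the falls among subunits lay mostly in complexes II to V. Read by the brightest probe of each gene, none of the 35 measured subunits of complexes II to V rose and 15 fell, whereas complex I gave 5 rises and 3 falls among 32 subunits. This difference between complexes was not tested. The 13 assembly factors and other associated genes split into 6 rises and 4 falls. Over all members 11 rose and 22 fell of 80, that is 13.8% and 27.5%, beside 26.3% and 26.4% of all features tested, so the share of falls is near the background and only the share of rises lies below it. Members changed little, with a median absolute log2 fold change of 0.22 beside 0.32 over all features. The median log2 fold change of members was -0.07, and over all features it was 0.01. For the subunits of complexes II to V the median was -0.23 and 42.9% fell, with 0 rises at an unadjusted p under 0.05 too and 0 by the methods' t-test. A second, less bright probe of 1 of them, Atp5l, did rise (0.33 ± 0.11, adjusted p = 0.0349 over all probes).

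At 12 h 5 members had passed, 3 upward and 2 downward, that is 3.75% and 2.5% beside 10.4% and 8.85% of all features. The median log2 fold change of members at 12 h was 0.04. Between 12 h and 48 h, 3 members rose and 20 fell, beside 19.9% and 20.2% of features. The comparisons share arrays (12 h and 48 h share those of 0 h), so their counts stand side by side and are not independent. By complex, the falls of this later step were 4 in complex I, 1 in II, 2 in III, 3 in IV, 8 in V and 2 among associated genes. In all, 44 of the 80 members passed in no comparison, and the same share over all features was not counted. In each single comparison, 6.25% (12 h), 41.2% (48 h) and 28.7% (12 h to 48 h) of members passed. Of all features 19.2%, 52.7% and 40.1% did.

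**Figure D1:**
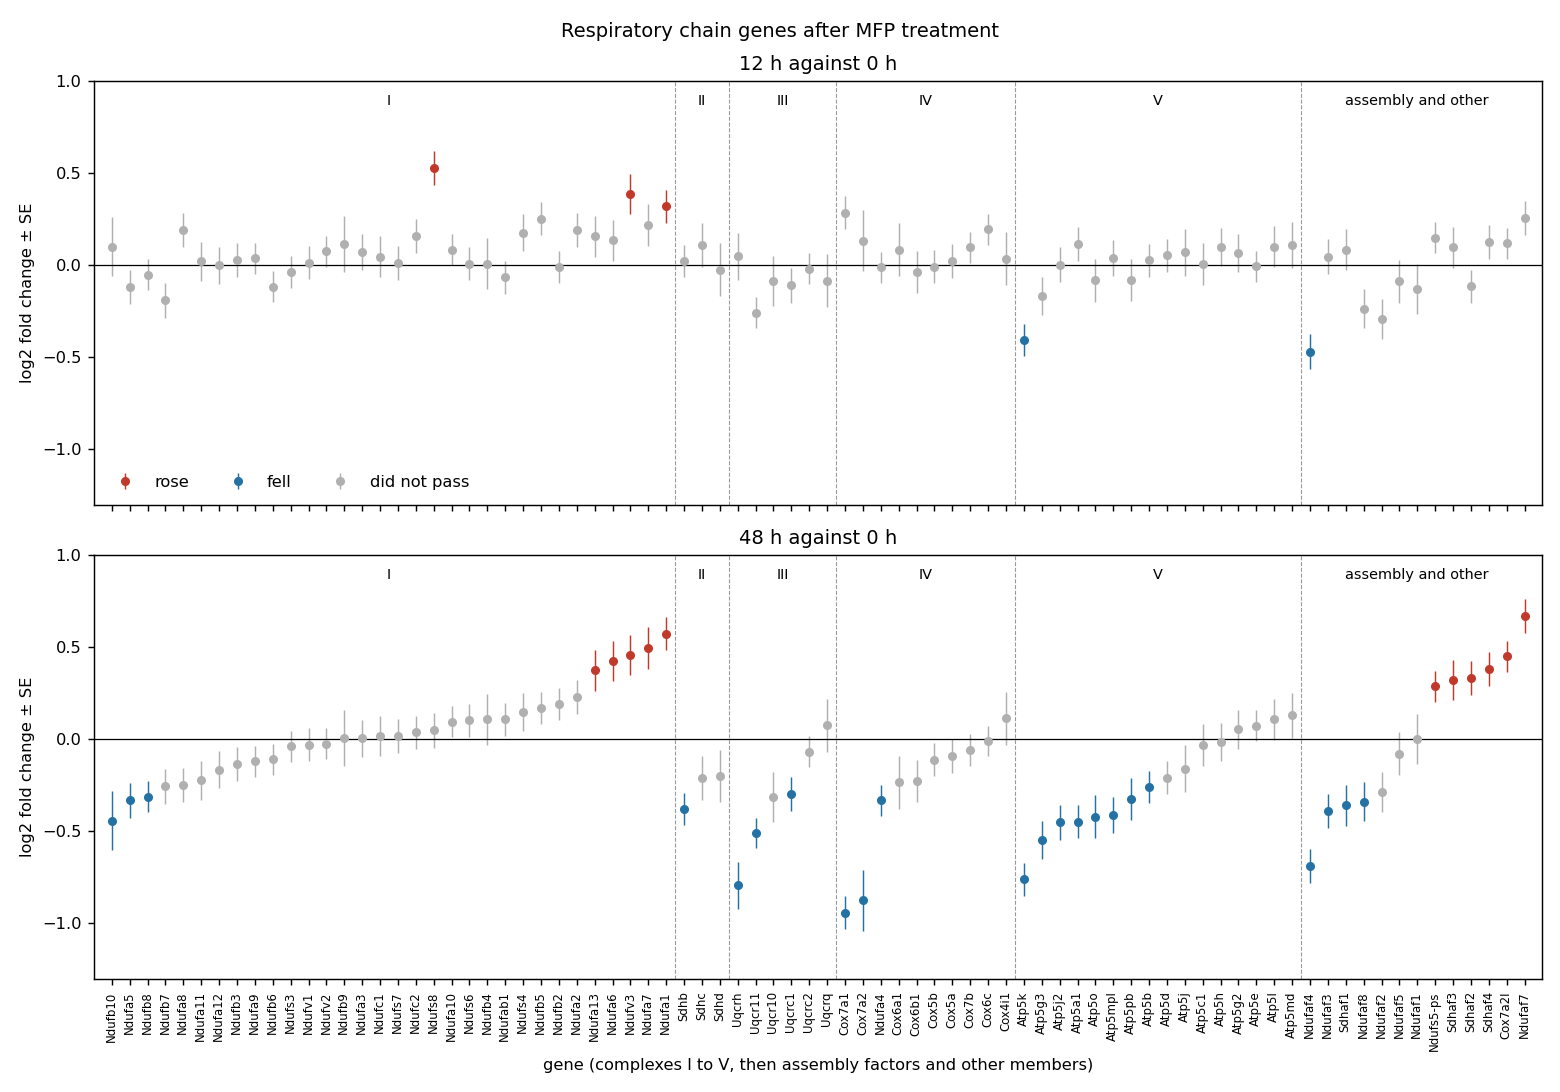
Log2 fold change (y axis, ± SE from limma) of each of the 80 genes (x axis, by complex and then by size at 48 h) at 12 h (top) and 48 h (bottom) against 0 h, 2 arrays per time point. Red points rose, blue points fell at an adjusted p under 0.05 and grey points did not pass. At 48 h complexes II to V hold 15 blue and 0 red points, and complex I holds 5 red and 3 blue.

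**Figure D2:**
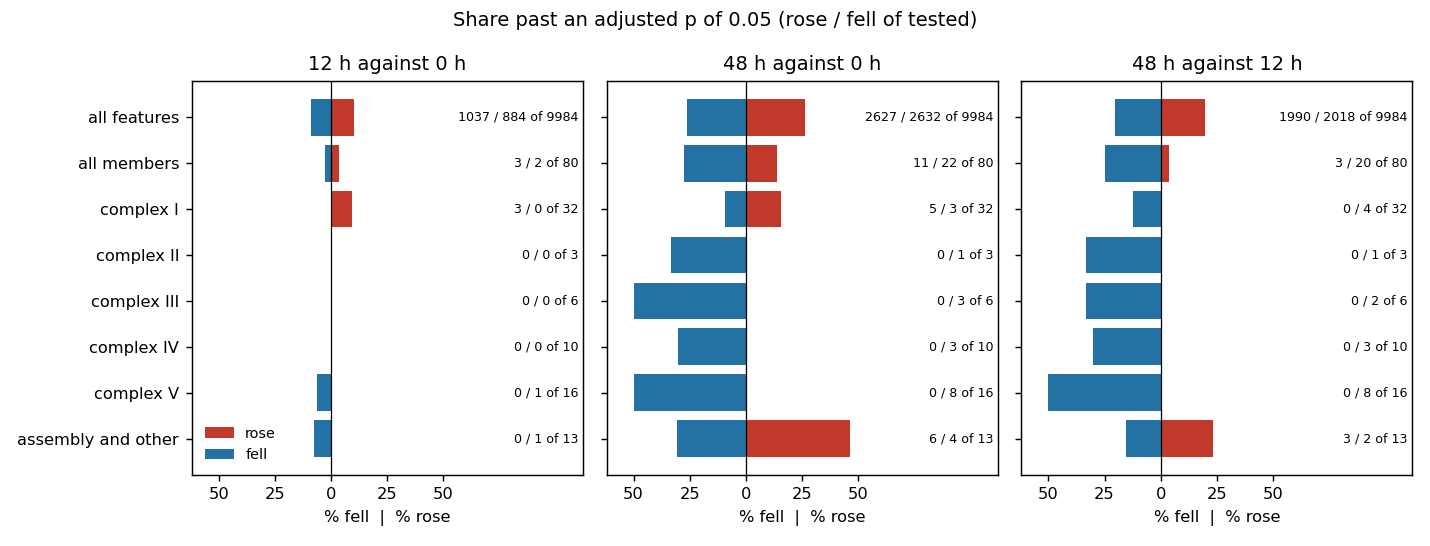
Percentage of tested genes that rose (red, to the right) or fell (blue, to the left) in each of the 3 comparisons, for all 9984 features, all 80 members and each complex, with counts of rises and falls at the right. At 48 h against 0 h the bar of all features is even on both sides (26.3% and 26.4%), and the bars of complexes II to V reach only to the left.

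The number of calls depended on the setting, while the median over members at 48 h was below 0 in every setting run. The median over members at 48 h was -0.08 in set 1 and -0.10 in set 2. Deviations from the time point means correlated between arrays of the same set at 0.567 to 0.631, with 3 pairs. With the array set as a block 13 members rose and 32 fell, beside 33.8% and 33.6% of features, and the falls in complexes II to V were 21 in place of 15. At 12 h with this block 7 rose and 5 fell, beside 19.6% and 20.4%. On the deposited normalized table, fitted with no block, 0 members passed in any comparison by limma. Only 3.1% and 3.05% of features rose and fell at 48 h in that fit. Its unadjusted p was under 0.05 for 0 members at 12 h, 3 at 48 h and 2 from 12 h to 48 h, all lower. With the array sets of that table as a block 12 members rose and 32 fell at 48 h, beside 33% and 33.8% of features. This alternative was chosen after seeing the data. With each array left out in turn, 4 of the 11 rises (Cox7a2l, Ndufa1, Ndufa7 and Ndufaf7) and 9 of the 22 falls at 48 h (Atp5a1, Atp5g3, Atp5j2, Atp5k, Cox7a1, Cox7a2, Ndufaf4, Uqcr11 and Uqcrh) passed every time, and no sign changed. Both arrays of a time point differed by a median of 0.09 to 0.10 log2 units over the members. Of the 60 members with a mean log2 level of at least 10, 13.3% rose and 26.7% fell at 48 h. Among all features at such levels the shares were 29.2% and 31.3%. By its brightest probe, no member passed with a change of 2-fold or more against 0 h, beside 1.34% of features at 12 h and 10.4% at 48 h. Another probe of Ndufb8 did, with a 2.2-fold fall at 48 h (adjusted p = 3.45e-05 over all probes).

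To show the control region of some genes, the 250 bases before the start site are printed (RefSeq, build GRCm38.p6, read 5′ to 3′ on the gene's strand). By brightest probe, Uqcrh, Cox7a1, Atp5k and Ndufaf4 had the largest fall in complexes III, IV and V and among associated genes. Ndufa1 had the largest rise among the subunits. Atp5g3 was included as the 1 member with a match for estrogen-related receptors. Capitals mark matches to letters bound by factors known to act on respiratory chain genes, namely NRF1 (the core CGCANGCG with a G before it and a C after it), the ETS family with GABP (CCGGAAG), estrogen-related receptors (TCAAGGTCA) and YY1 (AAGATGGC), each searched on both strands.
Cox7a1, chr7:30183921-30184170, plus strand: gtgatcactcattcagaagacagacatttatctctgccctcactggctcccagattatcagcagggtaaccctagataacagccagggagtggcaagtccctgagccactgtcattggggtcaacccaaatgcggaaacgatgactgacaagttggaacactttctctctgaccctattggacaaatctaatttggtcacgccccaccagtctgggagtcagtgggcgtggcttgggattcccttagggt
Atp5k, chr5:108434400-108434649, minus strand: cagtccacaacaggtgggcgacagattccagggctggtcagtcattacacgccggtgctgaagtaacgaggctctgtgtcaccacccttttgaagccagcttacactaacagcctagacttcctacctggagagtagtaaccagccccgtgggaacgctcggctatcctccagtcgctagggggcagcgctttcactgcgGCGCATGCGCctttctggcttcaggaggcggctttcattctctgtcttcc
Ndufaf4, chr4:24897833-24898082, plus strand: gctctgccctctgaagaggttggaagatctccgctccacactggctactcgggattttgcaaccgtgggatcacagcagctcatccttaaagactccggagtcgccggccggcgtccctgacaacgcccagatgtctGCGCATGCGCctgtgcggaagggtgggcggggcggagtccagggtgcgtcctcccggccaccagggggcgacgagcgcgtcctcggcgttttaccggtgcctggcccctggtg
Atp5g3, chr2:73911327-73911576, minus strand: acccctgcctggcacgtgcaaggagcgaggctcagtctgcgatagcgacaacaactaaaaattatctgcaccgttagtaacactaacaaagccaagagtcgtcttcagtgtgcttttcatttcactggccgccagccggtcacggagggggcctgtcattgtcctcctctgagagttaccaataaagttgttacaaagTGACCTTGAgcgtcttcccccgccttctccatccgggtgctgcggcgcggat
Uqcrh, chr4:116075071-116075320, minus strand: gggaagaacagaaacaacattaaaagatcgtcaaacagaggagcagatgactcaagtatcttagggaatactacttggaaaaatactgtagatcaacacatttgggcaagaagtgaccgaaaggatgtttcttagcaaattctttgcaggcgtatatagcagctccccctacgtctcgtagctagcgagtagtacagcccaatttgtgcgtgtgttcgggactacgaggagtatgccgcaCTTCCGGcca
Ndufa1, chrX:37191239-37191488, minus strand: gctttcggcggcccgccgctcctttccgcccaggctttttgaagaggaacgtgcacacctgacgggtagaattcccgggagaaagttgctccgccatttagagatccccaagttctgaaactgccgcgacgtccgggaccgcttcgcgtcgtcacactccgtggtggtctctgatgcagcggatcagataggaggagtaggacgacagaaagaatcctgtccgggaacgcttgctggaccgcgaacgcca

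In these windows, Atp5k holds the NRF1 letters at -50 to -41 from the start site and Ndufaf4 at -113 to -104. Atp5g3 holds the letters of estrogen-related receptors at -52 to -44 and Uqcrh those of ETS factors at -10 to -4, both on the other strand, and Cox7a1 and Ndufa1 hold none of the 4 motifs. None of the 4 was in 13 of the 20 windows of genes that fell, in 8 of the 10 that rose and in 23 of the 40 that did not pass. A promoter was matched for 70 of the 80 members. The NRF1 letters stood in 12 of these 70 (17.1%) and in 5.84% of 17491 protein-coding genes, and the ETS letters in 16 (22.9%) and 10.2%. By call at 48 h, the NRF1 letters were in 3 of 20 promoters of genes that fell, 0 of 10 that rose and 9 of 40 that did not pass. The core CGCANGCG alone, which every NRF1 match also holds, was in 4 of 20, 2 of 10 and 14 of 40, and the ETS letters in 3 of 20, 2 of 10 and 11 of 40. The letters of estrogen-related receptors and of YY1 were each in 1 of the 70, beside 0.36% and 1.77% of all genes, and CCAAT, a common promoter motif, was in 41.4% beside 39.5%. A match is a run of letters and not a bound site.

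Complex I takes electrons from NADH in a matrix arm and pumps protons in a membrane arm. Of the core subunits of the matrix arm, Ndufv1, Ndufs3 and Ndufs7 had small fold changes at 48 h. Ndufv1, which binds NADH, was at 13.00 and 12.97 at 0 h, then 12.96 and 13.04 at 12 h and later 12.89 and 13.02 at 48 h. Its arrays overlapped at all times, with a log2 fold change of -0.03 ± 0.09 (SE, n = 2) at 48 h. Ndufs3, a core subunit near the ubiquinone site, changed by -0.04 ± 0.08 and Ndufs7, which holds the last cluster before ubiquinone, by 0.02 ± 0.09. None of these 3 passed (adjusted p between 0.73 and 0.883).

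Ndufs8, a core subunit with iron-sulfur clusters on the path to ubiquinone, rose for a time. It was at 13.17 and 13.08 at 0 h, then 13.68 and 13.63 at 12 h and later 13.10 and 13.25 at 48 h (ILMN_2711734). Both 12 h arrays lay above all others, and the 48 h arrays overlapped those of 0 h. The log2 fold change was 0.53 ± 0.09 (SE, n = 2, adjusted p = 0.00784) at 12 h and 0.05 ± 0.09 at 48 h, and the step from 12 h to 48 h was a fall of -0.48 ± 0.09 (adjusted p = 0.00449). Without 0 h replicate 2 the 12 h rise was 0.49 (adjusted p = 0.0637).

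The 5 rises of complex I at 48 h, and its 3 falls too, were in accessory subunits, which surround the core. These make up most of the complex I subunits measured. Ndufa1, a small subunit at the junction of both arms, was at 12.41 and 12.54 at 0 h, then 12.80 and 12.79 at 12 h and later 13.08 and 13.02 at 48 h (ILMN_1251370). The 3 time points did not overlap, and the log2 fold change was 0.32 ± 0.09 at 12 h (adjusted p = 0.0409) and 0.57 ± 0.09 at 48 h (adjusted p = 0.000918), a gain of 48.7%. The 12 h call was lost without any 1 array (adjusted p between 0.0546 and 0.188). Ndufv3, an accessory subunit of the NADH-binding part, was at 12.86 and 12.77 at 0 h, then 13.07 and 13.34 at 12 h and later 13.24 and 13.31 at 48 h. It lay above 0 h on all 4 treated arrays and rose by 0.39 ± 0.11 at 12 h and 0.46 ± 0.11 at 48 h (adjusted p = 0.0437 and 0.00835). All 3 Ndufv3 probes rose at 48 h. For the brightest, the 12 h call was lost without 0 h replicate 1, 0 h replicate 2 or 12 h replicate 2 (adjusted p = 0.114, 0.198 and 0.235) and the 48 h call without 0 h replicate 2 (adjusted p = 0.0561). Ndufa7, another matrix arm subunit, was at 12.10 and 12.07 at 0 h, then 12.19 and 12.41 at 12 h and later 12.47 and 12.69 at 48 h. It was highest on both 48 h arrays and rose by 0.50 ± 0.11 (adjusted p = 0.00628). Ndufa6, which holds the acyl carrier protein at the matrix arm, rose by 0.43 ± 0.11, and Ndufa13, also known as a cell death regulator, by 0.37 ± 0.11.

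The falls in complex I were Ndufb10 (-0.44 ± 0.16, adjusted p = 0.0465) and Ndufb8 (-0.31 ± 0.08, adjusted p = 0.0142), both of the membrane arm, and Ndufa5 (-0.33 ± 0.09, adjusted p = 0.0177) of the matrix arm. The levels of Ndufb8 were 14.02 and 14.04 at 0 h, then 13.96 and 14.00 at 12 h and later 13.68 and 13.75 at 48 h, so both 48 h arrays were the lowest. Its call was lost without 0 h replicate 1, 0 h replicate 2 or 48 h replicate 1 (adjusted p = 0.0507, 0.0648 and 0.0837), and that of Ndufa5 without 0 h replicate 1 or 48 h replicate 1 (adjusted p = 0.0942 and 0.119). Ndufb10 was read at 9.98 and 9.52 on the 12 h arrays, and its 48 h call was lost without 0 h replicate 1, 0 h replicate 2 or 48 h replicate 2 (adjusted p = 0.0583, 0.236 and 0.161). Ndufa8 fell from 12 h to 48 h only. The other 22 complex I subunits passed in no comparison, Ndufab1, the acyl carrier protein, among them. With the array set as a block Ndufa2 and Ndufb2 passed upward at 48 h (adjusted p = 0.0157 and 0.0339) and Ndufa8, Ndufa11 and Ndufb7 downward (adjusted p = 0.00808, 0.0231 and 0.0108). By arm, 3 of 14 matrix arm subunits rose (21.4%) and 1 fell (7.14%) at 48 h. Of 17 membrane arm subunits, 2 rose and 2 fell (11.8% each way). All these shares lie below those of all features, 26.3% and 26.4%.

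Complex II, succinate dehydrogenase, also belongs to the citric acid cycle. Sdhb, its iron-sulfur subunit, was at 11.06 and 11.07 at 0 h, then 11.11 and 11.06 at 12 h and later 10.75 and 10.62 at 48 h (ILMN_2769065). Both 48 h arrays lay below the other 4, and the log2 fold change was -0.38 ± 0.09 (SE, n = 2, adjusted p = 0.00754), so that the signal fell by 23.1%. Without 48 h replicate 2 the value was -0.31 (adjusted p = 0.0559). The membrane anchors Sdhc and Sdhd were at -0.21 ± 0.12 and -0.20 ± 0.14, with overlapping arrays, and did not pass. Within array sets 1 and 2 Sdhc was at -0.21 in both and Sdhd at -0.19 and -0.21, and with the array set as a block both passed downward (adjusted p = 0.0256 and 0.0307).

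Complex III moves electrons from ubiquinol to cytochrome c. Uqcrh, the acidic hinge protein that helps cytochrome c1 meet cytochrome c, was at 13.31 and 13.03 at 0 h, then 13.21 and 13.23 at 12 h and later 12.24 and 12.51 at 48 h (ILMN_2512849). The 0 h and 12 h arrays overlapped and both 48 h arrays were lower than all of them. It fell by 0.79 on the log2 scale (SE 0.13, adjusted p = 0.00108). Its signal fell by 42.3%. Uqcr11, a small subunit, went from 13.47 and 13.51 at 0 h to 13.22 and 13.25 at 12 h and 12.97 and 12.99 at 48 h. Its time points did not overlap, and it passed at 48 h (-0.51 ± 0.08, adjusted p = 0.00117) and not at 12 h (-0.26 ± 0.08, adjusted p = 0.0656). Uqcrc1, a core protein, fell by 0.30 (adjusted p = 0.0276), and the call was lost without 0 h replicate 1, 48 h replicate 1 or 48 h replicate 2 (adjusted p = 0.141, 0.0521 and 0.132). Uqcrc2, Uqcr10 and Uqcrq did not pass, though with the array set as a block Uqcr10 did (-0.32, adjusted p = 0.00145). Cyc1, the cytochrome c1 of the same complex, whose symbol lies outside the rule, fell by 0.57 (SE 0.09, adjusted p = 0.000865).

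Complex IV, cytochrome c oxidase, held the largest falls of all members at 48 h when each was read by its brightest probe. Cox7a1, known as the heart and muscle form of subunit VIIa, was at 9.10 and 9.15 at 0 h, then 9.37 and 9.46 at 12 h and later 8.13 and 8.24 at 48 h (ILMN_1240857). The 12 h arrays were the highest and the 48 h arrays the lowest, without overlap. The log2 fold change was 0.28 ± 0.09 at 12 h (adjusted p = 0.0635) and -0.94 ± 0.09 at 48 h (adjusted p = 6.6e-05), and the step from 12 h to 48 h was -1.23 ± 0.09 (adjusted p = 3.67e-05). Cox7a2, the form found in most tissues, was at 9.21 and 9.15 at 0 h, then 9.17 and 9.46 at 12 h and later 8.05 and 8.55 at 48 h (ILMN_2733698). Both 48 h arrays were lower than the other 4, though they differed from each other, and the change was -0.87 ± 0.17 (adjusted p = 0.00258). These were the 2 members that fell at least 2-fold from 12 h to 48 h, 2.5% of members beside 3.26% of features. The sequences of the probes were not used here, so signal shared between such related genes could not be checked.

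The other complex IV genes changed less. Ndufa4, first named for complex I and now counted as a complex IV subunit, was at 13.82 and 13.76 at 0 h, then 13.77 and 13.79 at 12 h and later 13.45 and 13.47 at 48 h. Its 48 h arrays lay below the rest and it fell by 0.33 (SE 0.08, adjusted p = 0.0106), a call lost without 0 h replicate 1 or 48 h replicate 1 (adjusted p = 0.0608 and 0.0521). Cox4i1, Cox5a and Cox5b, nuclear subunits that lie around the catalytic core, were at 0.11 ± 0.14, -0.09 ± 0.09 and -0.11 ± 0.09 and did not pass. With the array set as a block Cox6a1 and Cox6b1 passed downward (-0.23 each, adjusted p = 0.0116 and 0.0244). Forms known from particular tissues, Cox4i2, Cox6b2, Cox7b2, Cox8b and Cox8c, were detected on no array. Of 5 annotated striated muscle markers, 4 were detected on no array and Mb on 1. Cox6a2, the muscle form left out of the rule, was at 9.66 and 9.56 at 0 h, then 11.19 and 11.41 at 12 h and later 14.36 and 14.60 at 48 h, a log2 fold change of 4.87 ± 0.12 (adjusted p = 2.91e-07), so that of the 2 muscle forms measured Cox7a1 fell and Cox6a2 rose.

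In complex V, ATP synthase, 8 of 16 subunits fell at 48 h, that is 50%, beside 26.4% of all features. Complex III had the same share, with 3 of 6. The falls in complex V were 6 of 11 subunits of the stalk and the membrane part (Fo) and 2 of 5 subunits of the catalytic F1 head. Atp5k, subunit e, which joins ATP synthases in pairs, was at 7.94 and 7.96 at 0 h, then 7.50 and 7.59 at 12 h and later 7.24 and 7.14 at 48 h (ILMN_1214830). Each time point lay below the one before it, with a change of -0.41 ± 0.09 at 12 h (adjusted p = 0.018) and -0.76 ± 0.09 at 48 h (adjusted p = 0.000194). Its mean log2 level of 7.56 is among the lowest of the members. A second Atp5k probe was detected on no array. The 12 h call was lost without either 0 h or either 12 h array (adjusted p between 0.0592 and 0.0956). Atp5g3, a gene for the c-ring that turns as protons pass, was at 15.28 and 15.35 at 0 h, then 15.11 and 15.19 at 12 h and later 14.65 and 14.89 at 48 h. The groups did not overlap, and the fall was 0.55 on the log2 scale (SE 0.10, adjusted p = 0.00261). Atp5g2, another gene for the same ring protein, was at 0.05 ± 0.11 and did not pass.

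In the F1 head, Atp5a1, the alpha subunit, was at 10.11 and 10.25 at 0 h, then 10.31 and 10.28 at 12 h and later 9.70 and 9.76 at 48 h. Both 48 h arrays were the lowest, and it fell by 0.45 (SE 0.09, adjusted p = 0.00364). A second, dimmer Atp5a1 probe was at -0.36 ± 0.09 at 12 h (limma over all probes, adjusted p = 0.027). At 48 h that probe was at -0.19 ± 0.09 and did not pass (adjusted p = 0.106). Atp5b, the catalytic beta subunit, fell by 0.26 (SE 0.09, adjusted p = 0.038) and lost the call without any 1 of the 6 arrays (adjusted p between 0.0524 and 0.19). The gamma, delta and epsilon subunits, Atp5c1, Atp5d and Atp5e, did not pass. Atp5j2, subunit f of the membrane part, was at 14.21 and 14.08 at 0 h, then 14.12 and 14.18 at 12 h and later 13.63 and 13.76 at 48 h. Its 48 h arrays were clear of the others and it fell by 0.45 (SE 0.10, adjusted p = 0.00449). Atp5o, the stalk protein that confers oligomycin sensitivity, Atp5mpl, a small proteolipid, and Atp5pb, the b subunit of the stalk, fell by 0.42, 0.41 and 0.33. Atp5h, Atp5j, Atp5l and Atp5md did not pass by their brightest probe, whereas the other Atp5j probe fell and the other Atp5l probe rose. With the array set as a block Atp5d passed downward (adjusted p = 0.0228).

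**Figure D3:**
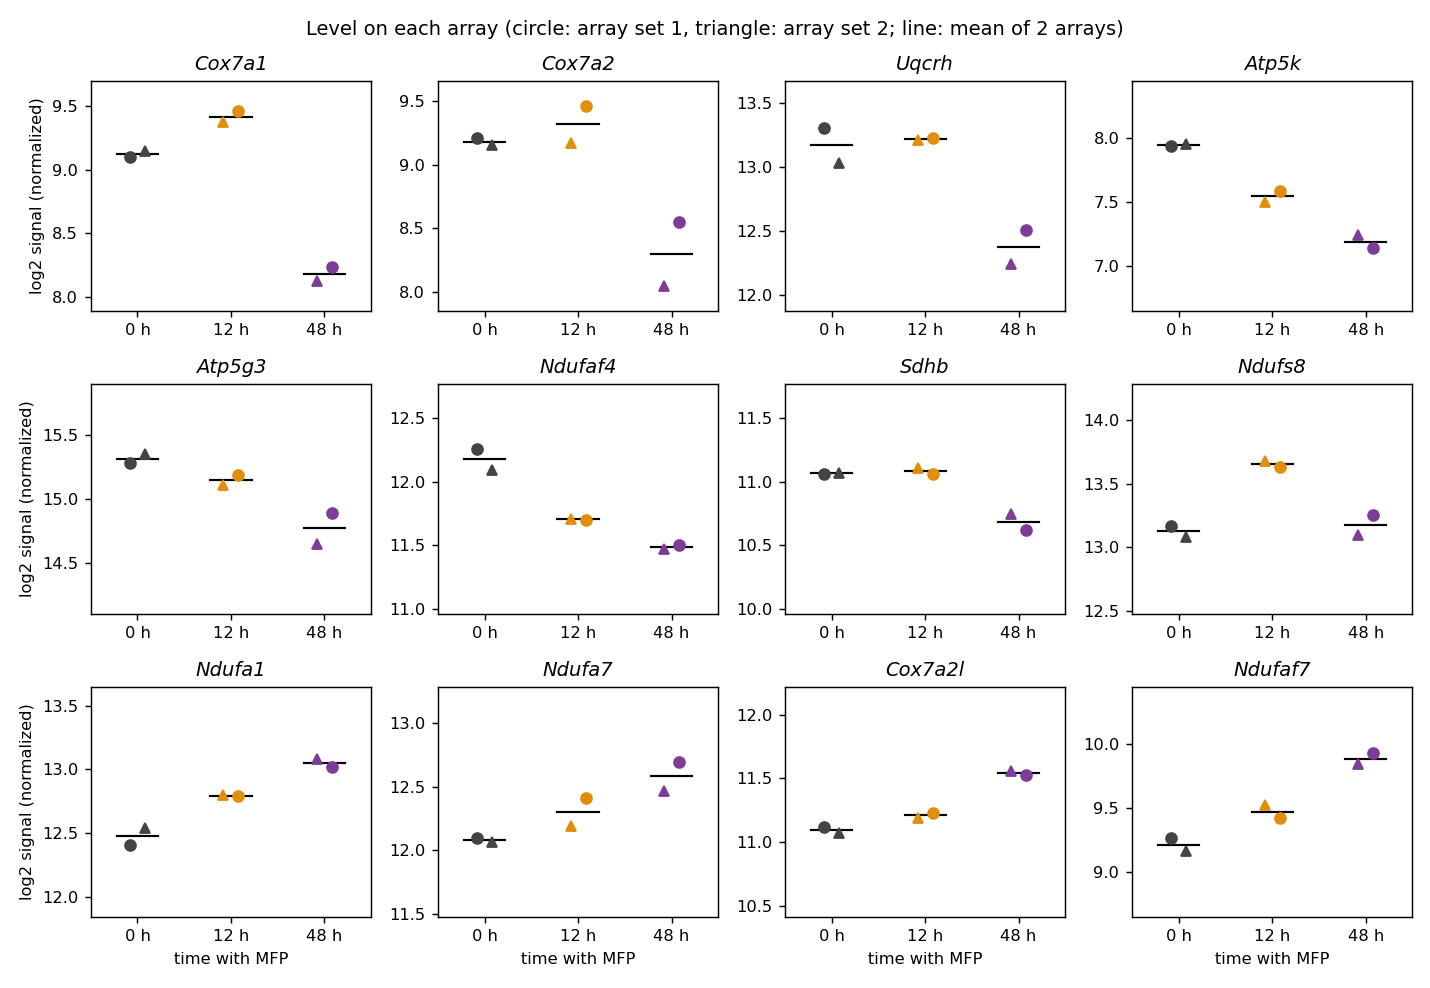
Log2 normalized signal (y axis, each panel spans the same range of log2 units) of 12 genes on each of the 6 arrays at 0 h, 12 h and 48 h (x axis). Circles are array set 1, triangles are array set 2 and lines are means of 2 arrays. Cox7a1 was lowest on both 48 h arrays (8.13 and 8.24), Ndufs8 was highest on both 12 h arrays (13.68 and 13.63), and Ndufa1 was highest at 48 h (13.08 and 13.02).

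The associated genes, most of them assembly factors that build the complexes and are not part of them, moved both ways. Among complex I factors, Ndufaf4 was at 12.26 and 12.09 at 0 h, then 11.71 and 11.70 at 12 h and later 11.47 and 11.50 at 48 h (ILMN_2734060). All treated arrays lay below 0 h, with -0.47 ± 0.09 at 12 h (adjusted p = 0.0121) and -0.69 ± 0.09 at 48 h (adjusted p = 0.000421). The 12 h call was lost without 0 h replicate 1, 12 h replicate 1 or 12 h replicate 2 (adjusted p = 0.0768, 0.0515 and 0.0666). Its partner Ndufaf3 was at -0.39 ± 0.09 at 48 h (adjusted p = 0.0083) and Ndufaf8 at -0.34 ± 0.10 (adjusted p = 0.0249), both lower. The signal of Ndufaf3 was dim, with a mean log2 level of 7.69. For Ndufaf3 the adjusted p was 0.058 without 0 h replicate 1 and 0.0565 without 48 h replicate 2. In contrast, Ndufaf7, a complex I assembly factor in the matrix, was at 9.26 and 9.16 at 0 h, then 9.52 and 9.42 at 12 h and later 9.84 and 9.93 at 48 h. Its levels did not overlap between time points and it rose by 0.67 ± 0.09 (adjusted p = 0.000469), the largest rise of any member.

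Of the complex II factors, Sdhaf2, which helps attach the flavin to Sdha, Sdhaf3, which acts in the iron-sulfur maturation of Sdhb, and Sdhaf4, which helps join Sdha with Sdhb, rose by 0.33, 0.32 and 0.38, and Sdhaf1, which helps insert the clusters of Sdhb, fell by 0.36. The call of Sdhaf1 was lost without 0 h replicate 1, 0 h replicate 2 or 48 h replicate 1 (adjusted p = 0.0981, 0.097 and 0.188). Cox7a2l, a factor for supercomplexes of complexes III and IV, was at 11.12 and 11.07 at 0 h, then 11.19 and 11.23 at 12 h and later 11.56 and 11.53 at 48 h. Its 48 h arrays were above all others, and it rose by 0.45 ± 0.08 (adjusted p = 0.00234). Ndufs5-ps, annotated as a pseudogene of Ndufs5, rose by 0.29 ± 0.08 (adjusted p = 0.0196). Signal from the parent gene could not be checked.

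A single probe stood for each gene, and 26 members had at least 2 probes detected on all arrays. At 48 h the probes of 21 of them had the same sign and those of 18 the same call, with 0 opposite calls and a median spread of 0.108 between their log2 fold changes. In 3 genes the probes lay over 0.5 apart. For Ndufb8 the brightest probe was at -0.31 and another one, at 8.63 and 8.70 at 0 h and 7.57 and 7.48 at 48 h, was at -1.14 ± 0.09. For Atp5j the values were -0.16 and -0.78, and for Ndufaf4 they were -0.69 and 0.11. Of 4 Ndufs4 probes, the brightest did not pass (0.15), whereas 2 others passed upward (0.38 and 0.41). Of both Atp5l probes, the brightest was at 0.11 ± 0.11 and the other, at 9.45 and 9.33 at 0 h and 9.65 and 9.79 at 48 h, rose by 0.33 ± 0.11 (adjusted p = 0.0349). For Atp5a1, Atp5mpl, Atp5pb and Sdhb the brightest probe fell and the other probes, all lower too, did not pass at 48 h. Their adjusted p over all probes was 0.106 for Atp5a1 and 0.189 for Atp5mpl. It was 0.0718 and 0.111 for Atp5pb and 0.0747 for Sdhb. Ndufb10 fell in the fit with 1 probe per gene, but in limma over all probes neither of its probes passed. The brightest was at -0.44 ± 0.16 (adjusted p = 0.0502) and the other at -0.10 ± 0.10 (adjusted p = 0.425). Its probes are thus counted above as having the same call. For these genes the size of the change, or its call, depends on the probe read.

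**Figure D4:**
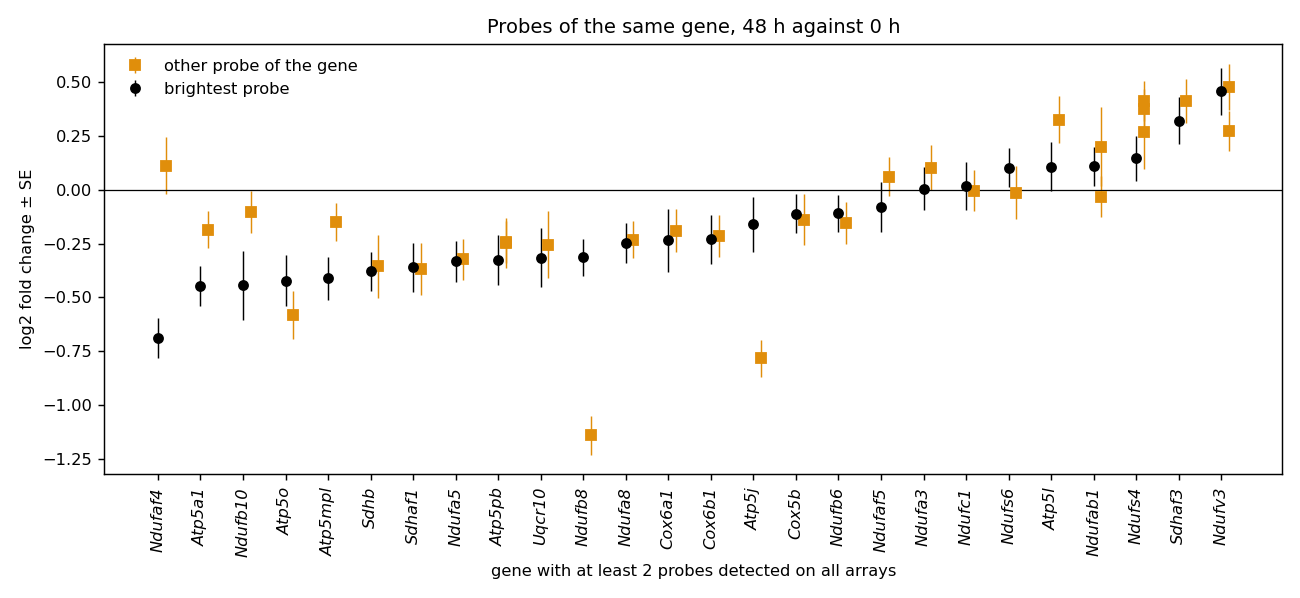
Log2 fold change at 48 h against 0 h (y axis, ± SE) of the 26 genes with at least 2 detected probes (x axis), for the brightest probe (black circles) and the other probes (orange squares). The widest gaps are in Ndufb8 (-0.31 and -1.14), Ndufaf4 (-0.69 and 0.11) and Atp5j (-0.16 and -0.78).

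The 10 annotated genes left out were not detected on all arrays. They include the core subunits Ndufs1, Sdha and Uqcrfs1, which all respiring cells use, so this is not read as absence of their RNA. Of 30 member probes left out, 24 were detected on no array. None was detected on both arrays of a treated time point and on neither 0 h array. No subunit encoded in mitochondrial DNA was named by a probe here, so those were not analysed.

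Genes around the chain were mixed too. Of 16 genes for electron carriers and ubiquinone synthesis, 3 rose and 4 fell at 48 h, with a median log2 fold change of 0.03. The counts of this and the following lists stand beside 26.3% of all features that rose and 26.4% that fell, and with so few genes they set no list apart. Cycs, which encodes cytochrome c, fell by 0.49 (SE 0.10, adjusted p = 0.00467), and Coq6, a ubiquinone ring hydroxylase, fell by 0.63, whereas Coq9 and Coq10a, which bind the lipid, rose by 0.58 and 0.78. Of 14 genes of the citric acid cycle and pyruvate dehydrogenase, 2 rose and 5 fell (median -0.08). Fh1, which encodes fumarase, fell by 0.61 and Cs, which encodes citrate synthase, by 0.54, while Pdhb, of pyruvate dehydrogenase, rose by 0.51. Of 33 assembly factors outside the rule, 4 rose and 7 fell (median -0.07). Coa4, a complex IV factor, rose by 0.90 (SE 0.09, adjusted p = 8.01e-05), and Cox20, which handles a mitochondrially encoded complex IV subunit, and Atpaf2, a factor for the F1 head, fell by 0.68 and 0.64.

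Among nuclear regulators of the chain, 1 rose and 3 fell of 7 measured, with a median of -0.48. Nrf1, a transcription factor of nuclear mitochondrial genes, was at 10.66 and 10.65 at 0 h, then 10.39 and 10.68 at 12 h and later 10.18 and 10.42 at 48 h. Its 48 h arrays lay below 0 h and it fell by 0.35 (SE 0.13, adjusted p = 0.0456). Gabpa, an ETS factor, fell by 0.50 and Pprc1, a coactivator of the PGC-1 family, by 0.59, while Esrra, an estrogen-related receptor, rose by 0.25. Of 13 genes of mitochondrial DNA expression, 4 rose and 4 fell (median -0.21). Lonp1, the matrix protease that degrades misfolded and surplus proteins, was at 10.33 and 10.23 at 0 h, then 11.21 and 10.97 at 12 h and later 11.56 and 11.30 at 48 h. All its treated arrays were above 0 h, and it rose by 1.15 ± 0.12 (adjusted p = 0.000121), whereas Polg, the mitochondrial DNA polymerase, fell by 0.67 and Mterf3, a regulator of mitochondrial transcription, rose by 0.49. Of 5 nucleotide and phosphate carriers and porins, 2 fell and the others did not pass. These were Slc25a5, an ADP and ATP exchanger, by 0.65 and Vdac1, a porin, by 0.32.

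**Figure D5:**
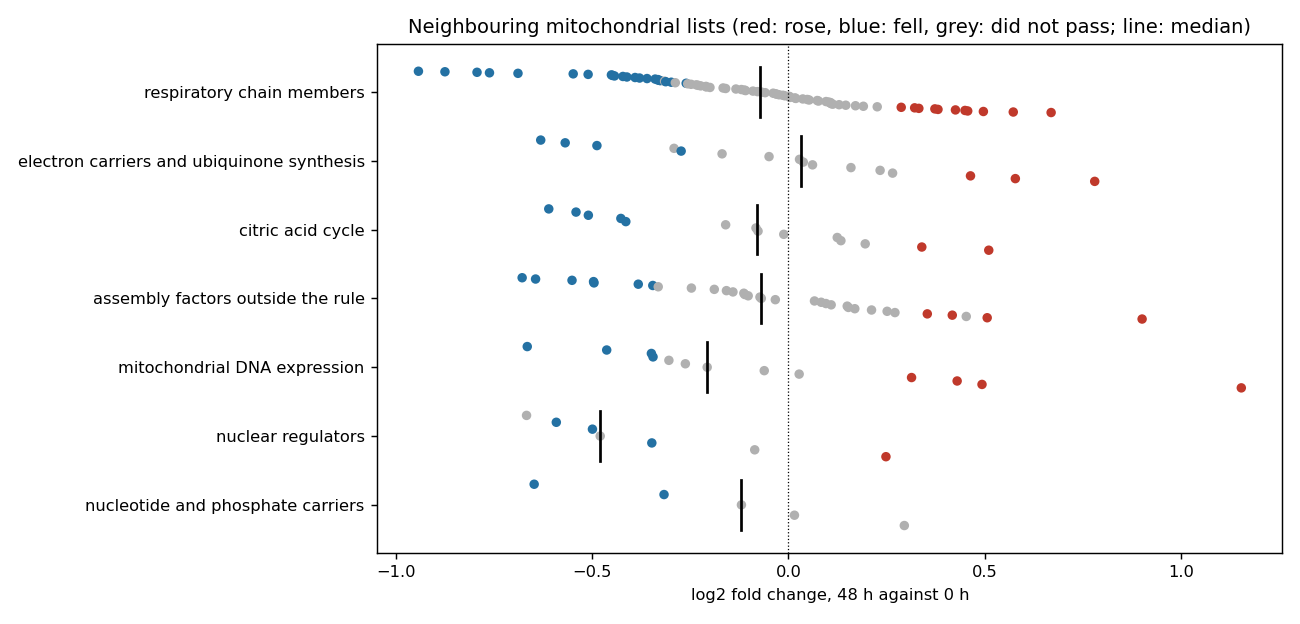
Log2 fold change at 48 h against 0 h (x axis) of the 80 members and of 6 lists of related mitochondrial genes (y axis, 1 row each), 1 point per gene, red where it rose, blue where it fell and grey where it did not pass, with the median as a line. Medians range from -0.48 for nuclear regulators to 0.03 for electron carriers and ubiquinone synthesis.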

How the data were processed

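RNA of RAW 264.7 cells was measured on 6 Illumina arrays, 2 per time point. The deposited signals are intensities on a linear scale that the authors exported from the scanner software without normalization, beside a deposited detection p-value per probe and array. The authors also deposited a table of log2 values, log transformed and quantile normalized in R (3.0.2 in the submitters' processing notes). The study's methods also name the scanner software's export, a filter on the detection p-value and a 2-fold limit.

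After the methods of the study, the filter kept probes called present (detection p under 0.05) on each of the 6 arrays, 14091 of 45281, and their intensities were log2 transformed and quantile normalized. Of all probes, 34885 had 1 gene symbol in the platform annotation, 18 had several and 10378 had none here. Each gene was read by its brightest probe on average, which gave 9984 features, 8149 of them named. All arrays entered 1 fit with a mean per time point in limma 3.58.1 (R 4.3.3), with Benjamini-Hochberg adjustment over all features and 8.05 degrees of freedom. Precision is limited by the number of arrays, 2 a group.

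The members and gene lists were chosen with earlier results of these data known. Genes named were up to 4 of each complex with the largest passing change at 48 h and up to 2 at 12 h, the core subunits, passing members that opposed their complex's median and up to 3 of each other list. Further members are named to complete a complex and were chosen after their values were seen. The script was tested on simulated data. Alternatives covered the filter, background, scaling, probe choice, blocks, threshold, the methods' t-test and each array left out. Promoters came from RefSeq (GRCm38.p6).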

Additional observations from a re-analysis of the deposited data

Results flagged for a closer look

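Among 30 named members, 18 differed between the effect at 48 h and the effect at 12 h (limma, 48 h against 12 h, adjusted p at most 0.0423). Most of the 30 were named for their passing changes, so this share is no result about the members, of which 28.7% passed beside 40.1% of all features. With 2 arrays per group, no array could be tested as an outlier. The effect at 48 h was lower than at 12 h for 16 of them. In complex IV the log2 differences were -1.23 for Cox7a1, -1.01 for Cox7a2 and -0.32 for Ndufa4. In complex III they were -0.84 for Uqcrh and -0.25 for Uqcr11, and in complex II -0.40 for Sdhb. In ATP synthase they were -0.56 for Atp5a1, -0.45 for Atp5j2, -0.38 for Atp5g3, -0.36 for Atp5k and -0.29 for Atp5b. The other Atp5a1 probe was at 0.18 for this step and did not pass (adjusted p = 0.147 over all probes). In complex I they were -0.54 for Ndufb10, -0.48 for Ndufs8 and -0.26 for Ndufb8. Of the assembly factors, Ndufaf3 and Sdhaf1 were both at -0.44, while Cox7a2l and Ndufaf7 had the larger effect at 48 h, by 0.33 and 0.41. With each array left out in turn, 7 of the 18 calls held every time (Atp5a1, Atp5j2, Cox7a1, Cox7a2, Ndufaf3, Ndufs8 and Uqcrh) and 11 were lost at least once. Those of Atp5b, Ndufb8 and Uqcr11 were lost without any 1 of the 6 arrays (adjusted p between 0.0522 and 0.179), and those of Ndufa4 and Cox7a2l without any 1 of the 12 h and 48 h arrays (between 0.0524 and 0.0792). Atp5g3 was lost without either 12 h array or 48 h replicate 1 (0.0532, 0.0987 and 0.134), Atp5k without 12 h replicate 2 or 48 h replicate 2 (0.0836 and 0.0808), and Ndufb10 without 12 h replicate 1 or 48 h replicate 2 (0.153 and 0.0974). Sdhaf1 was lost without 12 h replicate 2 or 48 h replicate 1 (0.0782 and 0.094), Sdhb without 12 h replicate 1 or 48 h replicate 2 (0.0505 and 0.0565), and Ndufaf7 without 12 h replicate 2 (0.056).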

How the results depend on the processing

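Counts of members are given as rises and falls, with the percentage of all features under the same setting where it moved. At 12 h (3 and 2) they were 0 and 0 with scaling to the 75th percentile, on the deposited normalized table, with a 2-fold limit and by the methods' t-test after adjustment, 8 and 5 by that t-test unadjusted, and 7 and 5 with the array set as a block, on the deposited table too. The percentages of features were 4.01% and 2.52% with the 75th percentile, 0% each on the deposited table and by the adjusted t-test, 1.17% and 0.17% with the 2-fold limit, 11% and 10.8% by the unadjusted t-test, and 19.6% and 20.4% with the set block. Normexp correction gave 1 rise (8.55%). At 48 h (11 and 22) they were 7 and 13 with scaling to the 75th percentile (20.2% and 19.8%), 0 and 0 on the deposited table (3.1% and 3.05%) and with a 2-fold limit (5.35% and 5.07%), and 2 and 3 by the adjusted t-test (8.78% and 8.69%). From 12 h to 48 h (3 and 20) they were 0 and 0 on the deposited table (0.801% and 1.15%) and by the adjusted t-test (1.29% and 1.5%) and 0 and 2 with a 2-fold limit (2.4% and 3.26%). For this step falls were 10 with scaling to the 75th percentile (13.1%), and rises were 10 with the set block (29.5%), 9 with it on the deposited table (28.2%), 5 with the mean of a gene's probes (20.4%) and 6 by the unadjusted t-test (17.0%). At an unadjusted p under 0.05, limma gave 7 and 4 at 12 h (16.7% and 16.8% of features). It gave 12 and 27 at 48 h (29.1% and 29.4%), and 8 and 24 from 12 h to 48 h (24.6% and 24.3%). The median at 48 h was -0.0365 with no detection filter. The cause of these shifts was not tested.

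With 1 array left out, 12 h gave 0 to 2 rises and 0 to 2 falls, 48 h gave 6 to 10 and 14 to 20, and the later step 1 to 3 and 11 to 15. In complexes II to V, 10 to 13 falls and 0 rises were counted at 48 h. Whichever array was left out, smaller shares of members than of all features rose and fell at 12 h and 48 h. The later step gave the same, except for falls without 48 h replicate 1. Each such fit leaves 1 array at a time point, so these counts carry little weight. Complexes II to V were not tested against all features in these fits. The medians of members, in the same order, ranged from -0.0021 to 0.0588, from -0.1028 to -0.0592 and from -0.1413 to -0.083.

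The replicate numbers followed the array sets at 12 h and 48 h, while those of 0 h ran the other way. Deviations of same-numbered arrays correlated over features at -0.567 (0 h and 12 h), -0.575 (0 h and 48 h) and 0.631 (12 h and 48 h). With the replicate block 1 rose and 2 fell at 12 h (7.32% and 5.54% of features), and 10 and 19 at 48 h (24.5% each way). In the later step 3 rose and 15 fell (17.6% and 18% of features). For the 30 named members no direction of a called change was reversed under any alternative, 275 values lost and 23 gained the call, and 1502 kept their side of the threshold.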
